A study of Mus musculus with 2 samples.

Results

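The let-7 family is a set of microRNAs (miRNAs), short RNAs that repress messenger RNAs, and it was described here locus by locus in the newborn mouse heart. The members were 10 miRNA genes taken by their Ensembl identifiers: Mirlet7a-1, Mirlet7a-2, Mirlet7b, Mirlet7c-1, Mirlet7c-2, Mirlet7d, Mirlet7f-2, Mirlet7g, Mirlet7i and Mir98. They were chosen by name, not by level, and are 10 of the 1973 miRNA genes in the count tables. All 10 had counts in both libraries. Single hearts of 2 B6NCrl pups, taken on postnatal day 0, made up the only group. Pup 3 gave replicate 2 and pup 2 gave replicate 1, both from the litter of pregnant female 1, with sex not collected. The labels give no treatment and no altered allele, so the loci were compared with each other, and the hearts as replicates.

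A let-7 gene is transcribed as a long precursor, cut to a hairpin and then to a duplex whose 5p arm usually becomes the mature miRNA. Bases 2 to 8 of the mature miRNA, the seed, pair with target messenger RNAs, so forms with the same seed are grouped as 1 family. The family is known for rising as cells differentiate, for targeting growth genes such as Hmga2 and Lin28a, and, in cardiac muscle cells, for promoting maturation. LIN28 proteins bind the loop of the precursor and block its processing in early embryonic cells.

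The mature 5p forms are shown first, because the loci are grouped below by whether their form is made elsewhere. They are from RefSeq on GRCm38.p6 and are printed 5′ to 3′ with the seed in capitals; all 10 members matched an entry, and their hairpins equal those of GENCODE M21.
let-7a-5p: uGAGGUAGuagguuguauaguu
let-7c-5p: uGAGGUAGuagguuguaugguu
let-7b-5p: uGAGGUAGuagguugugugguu
let-7f-5p: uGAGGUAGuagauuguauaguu
let-7d-5p: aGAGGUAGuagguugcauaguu
miR-98-5p: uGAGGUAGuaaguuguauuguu
let-7g-5p: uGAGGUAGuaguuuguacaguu
let-7i-5p: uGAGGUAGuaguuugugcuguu
All 8 are 22 nt long and have the seed GAGGUAG. With positions counted from 1 at the 5′ end and let-7a first, let-7c differs by A19G, let-7b by A17G and A19G, let-7f by G12A, let-7d by U1A and U16C, miR-98 by G11A and A19U, let-7g by G12U and U18C, and let-7i by G12U, A17G, U18C and A19U. No difference lies in the seed. The forms let-7a, let-7c and let-7f are each made at 2 loci, and let-7b, let-7d, let-7g, let-7i and miR-98 at 1. The plot of differences between mature forms shows how close they are: let-7a is 1 base from let-7c, from let-7f and from let-7e, whose gene had no row of its own, while let-7d and let-7i differ at 6 positions.

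**Figure D1:**
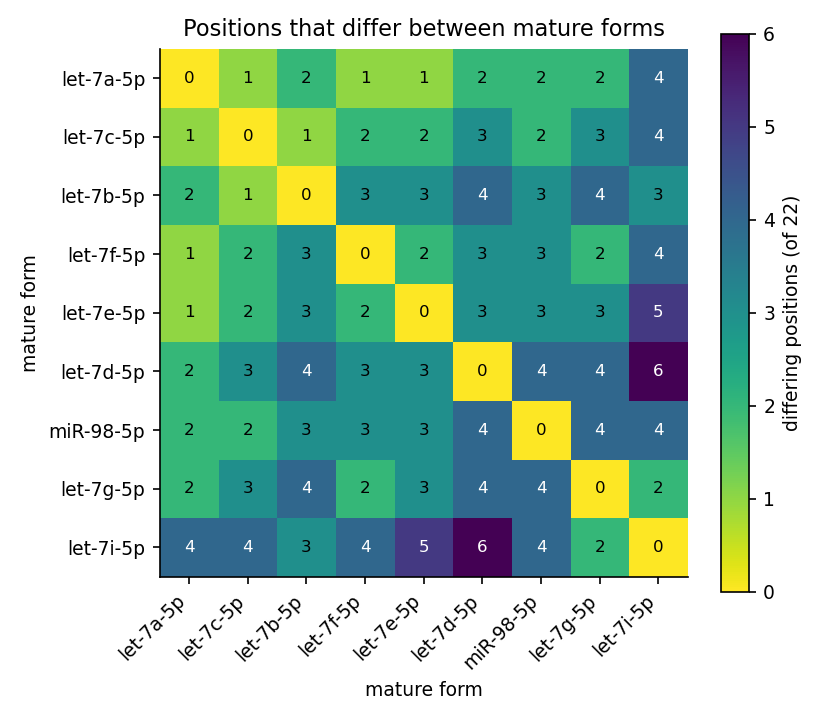
Number of positions, of 22, at which 2 mature 5p forms of the family differ, for 9 forms on both axes (let-7e, whose gene had no row, included). Values run from 1 (let-7a against let-7c, let-7f or let-7e, and let-7b against let-7c) to 6 (let-7d against let-7i).

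Of 7441784 reads in replicate 2, 3487183 were counted in the sense direction in a miRNA gene, and of 5052766 in replicate 1, 2323450. Reads aligned to several places made up 37.1% of reads in replicate 2 and 36.6% in replicate 1 and were assigned to no gene. Levels are given as CPM, the sense count scaled to a library of 1000000, and ± is the SD between pups. Counts are per gene, so the 5p and 3p arms of a hairpin are not separated, and how many reads a miRNA yields per molecule was not measured. Intervals cover counting error only. Positions are on GRCm38 from GENCODE M21. The heart label was set against miRNAs of cardiac muscle: 6 of 7 listed markers had a row, and they held 8.89% of sense counts in replicate 2 and 9.01% in replicate 1, led by Mir208b. The markers Mir1a-1, Mir133a-1 and Mir133a-2 were low, at 6.38, 7.89 and 2.08 CPM on average. How many of the reads aligned to several places came from these markers was not tested. Their counts thus do not give the level of miR-1a or miR-133a. Fewer cells of a type and less RNA per cell cannot be told apart in whole hearts.

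Together the 10 loci held 352600 sense counts in replicate 2 and 237617 in replicate 1. That was 10.1% of all sense counts in replicate 2 (exact Clopper-Pearson 95% interval 10.08% to 10.14%) and 10.2% in replicate 1 (10.19% to 10.27%), a mean of 10.2% ± 0.0817 (SD, n = 2). Almost all of it came from a few loci. Mirlet7g and Mirlet7i held 78.7% ± 0.367 of the family's counts, and the 4 lowest loci together held 0.448% ± 0.00526. These shares cover only reads assigned to a gene. Reads aligned to several places were 7.82 times the family's counts in replicate 2 and 7.79 times in replicate 1. How many of them were let-7 was not tested, so the shares do not give the make-up of mature let-7 in the heart.

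Mirlet7g, which lies in an intron of the gene for the WD-repeat protein Wdr82 at chr9:106178840-106178927 on the plus strand, was the highest locus. It had 167146 counts in replicate 2 and 110692 in replicate 1, or 47786 ± 205 CPM (n = 2), and ranked 7 among all 1973 genes in both libraries. Mirlet7i, at chr10:122985640-122985724 on the minus strand, overlaps an exon of the transcribed pseudogene D630033A02Rik and ranked 10 in both. It had 111305 counts in replicate 2 and 75723 in replicate 1, or 32255 ± 475 CPM. Neither has another let-7 gene within 50000 bases. Mirlet7g exceeded Mirlet7i 1.48-fold, with a log2 ratio of 0.59 in replicate 2 and 0.55 in replicate 1.

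Mirlet7d, at chr13:48536012-48536114 on the minus strand, followed with 41553 counts in replicate 2 and 29411 in replicate 1, or 12287 ± 525 CPM, and ranked 20. It overlaps an exon of the long noncoding RNA 6720427I07Rik. Mirlet7b, at chr15:85707319-85707403 on the plus strand, had 12516 counts in replicate 2 and 8364 in replicate 1, or 3594 ± 7.55 CPM. Mir98, in an intron of the ubiquitin ligase gene Huwe1 at chrX:151913214-151913321 on the plus strand, had 10786 counts in replicate 2 and 7277 in replicate 1, or 3113 ± 27.5 CPM. These are the remaining loci whose mature form is made nowhere else, and the lowest of them, Mir98, ranked 34 by mean level.

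Mirlet7f-2, also in an intron of Huwe1, at chrX:151912346-151912428 on the plus strand, had 7728 counts in replicate 2 and 5077 in replicate 1, or 2201 ± 21.9 CPM. It was the highest locus among those whose mature form is made at 2 loci. The drop to the next locus was 17.3-fold (log2 ratio of Mirlet7f-2 over Mirlet7a-1 4.12 ± 0.130), the largest step between neighbours in the order of the 10.

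Mirlet7a-1, at chr13:48538179-48538272 on the minus strand, had 418 counts in replicate 2 and 312 in replicate 1, or 127 ± 10.2 CPM. Mirlet7c-2, at chr15:85706603-85706697 on the plus strand, had 385 counts in replicate 2 and 278 in replicate 1, or 115 ± 6.54 CPM. Mirlet7c-1, at chr16:77599657-77599750 on the plus strand, had 407 counts in replicate 2 and 259 in replicate 1, or 114 ± 3.71 CPM. All 3 lay near rank 150. Mirlet7a-2, at chr9:41536716-41536811 on the plus strand, was the lowest, with 356 counts in replicate 2 and 224 in replicate 1, or 99.2 ± 4.02 CPM, 481-fold below Mirlet7g.

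**Figure D2:**
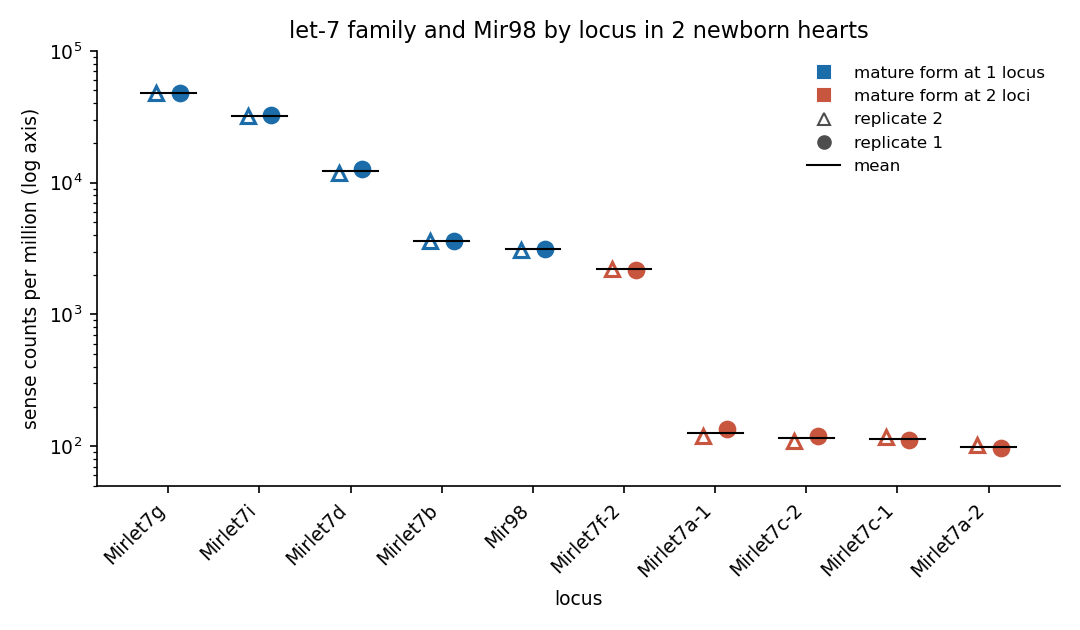
Sense CPM (log axis) of the 10 loci in each of the 2 hearts, ordered by mean; black lines are means over the 2 pups, blue marks loci whose mature form is made at 1 locus and red those whose form is made at 2. The 5 blue loci lie between 3093 and 47932 CPM, Mirlet7f-2 at 2185 to 2216 CPM, and the other 4 red loci between 96.4 and 134 CPM.

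Of the 9 pairs of neighbours in this order, 8 did not overlap between the pups. The exception was the pair of let-7c loci, which turned round: Mirlet7c-1 had 117 CPM and Mirlet7c-2 110 CPM in replicate 2, and Mirlet7c-1 had 111 CPM and Mirlet7c-2 120 CPM in replicate 1. Their log2 ratio, Mirlet7c-1 over Mirlet7c-2, was -0.01 ± 0.129. With 2 pups, ranges that do not overlap are a description: an exact two-sided sign flip cannot give p below 0.5. The steps from Mirlet7b to Mir98 (1.15-fold), from Mirlet7a-1 to Mirlet7c-2 (1.10-fold) and from Mirlet7c-1 to Mirlet7a-2 (1.15-fold) were small; for the last 2 of these the 95% intervals of the shares overlapped within each library. Between the copies of let-7a, Mirlet7a-1 exceeded Mirlet7a-2 by a log2 ratio of 0.35 ± 0.174.

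By class, the 5 loci with a mature form of their own held 97.4% ± 0.0337 of the family's counts, and the 5 loci that share theirs held 2.61% ± 0.0337. The log2 ratio of the sums was 5.22 ± 0.0191, or 37.3-fold in favour of the single-copy forms. Without Mirlet7f-2 in the class that shares, the log2 ratio was 7.76. The copies of let-7a summed to 774 counts in replicate 2 and 536 in replicate 1. Those of let-7c summed to 792 in replicate 2 and 537 in replicate 1. Reads aligned to several places numbered 2757266 in replicate 2 and 1850176 in replicate 1. That was 297 times the counts of the 5 loci that share a mature form in replicate 2, and 301 times in replicate 1. How many of these reads were let-7 was not tested, so these sums do not give the level of let-7a, let-7c or let-7f.

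The stretch from 1 base before to 6 bases after the 5p form shows how far the copies are the same. Capitals mark the positions at which the 2 copies of a pair differ.
Mirlet7a-1: AugagguaguagguuguauaguuuUAGgG
Mirlet7a-2: UugagguaguagguuguauaguuuAGAgU
Mirlet7c-1: UugagguaguagguuguaugguuuAgAgU
Mirlet7c-2: GugagguaguagguuguaugguuuUgGgC
Mirlet7f-1: GugagguaguagauuguauaguuGuGggg
Mirlet7f-2: AugagguaguagauuguauaguuUuAggg
From the 5p start, the copies of let-7a and of let-7c were identical for 23 nt, and those of let-7f for 22 nt, the length of the mature form. The base before the 5p form differed in every pair.

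Shared sequence was then measured over whole hairpins against the 2202 miRNA hairpins of GENCODE M21. The 5 single-copy loci shared at most 14 nt (Mirlet7d), 17 nt (Mir98) or 19 nt (Mirlet7b, Mirlet7g, Mirlet7i) with another hairpin. Mirlet7f-2 shared 22 nt, Mirlet7c-1 and Mirlet7a-2 shared 23 nt, and Mirlet7a-1 and Mirlet7c-2 shared 26 nt. The longest of these lies on the 3p side: the annotated 3p form of Mirlet7a-1 and of Mirlet7c-2 is the same, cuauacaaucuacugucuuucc, so these hairpins have no mature form of their own on either arm. The other loci have a 3p form found in no other hairpin. In the plot of level against shared stretch, the single-copy loci, Mirlet7f-2 alone and the remaining loci did not overlap on either axis. The split by stretch was largely set by the classes, since a locus that shares its 22 nt form shares at least 22 nt. Whether level depends on the shared stretch was not tested.

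**Figure D3:**
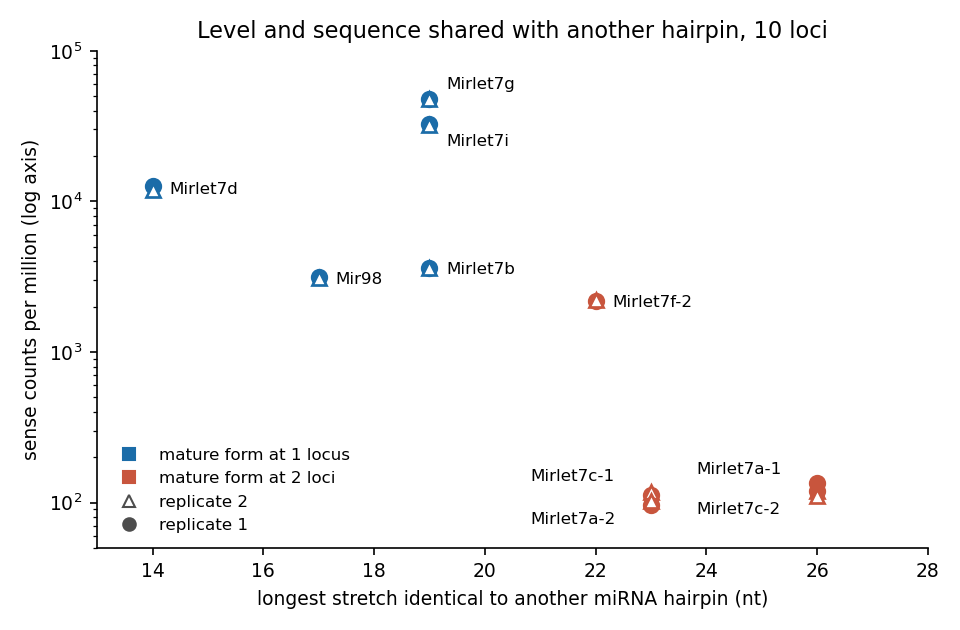
Sense CPM (log axis) of each locus in the 2 hearts against the longest stretch its hairpin shares with another miRNA hairpin, in nt. The 5 loci at 14 to 19 nt lie at 3093 CPM or more, Mirlet7f-2 at 22 nt lies at 2185 to 2216 CPM, and the 4 loci at 23 and 26 nt lie between 96.4 and 134 CPM.

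The same division was set beside the miRNA gene rows with an annotated mature form, which are not all of the 1973 rows, as a description with no test. Of 327 gene rows with an annotated mature form that also occurs in another hairpin, 2 (0.612%) reached a mean of 1000 CPM, Mir16-1 at 2825 CPM and Mirlet7f-2. Of 798 gene rows with forms found in no other hairpin, 69 (8.65%) reached it. The 5 single-copy members were all in that group. A mean of 2 CPM was reached by 41 (12.5%) of the 327 rows and by 265 (33.2%) of the 798. Most rows of either group were low, with a median of 0 CPM over the 327 rows and 0.359 CPM over the 798. The search covered annotated miRNA hairpins, not the whole genome.

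**Figure D4:**
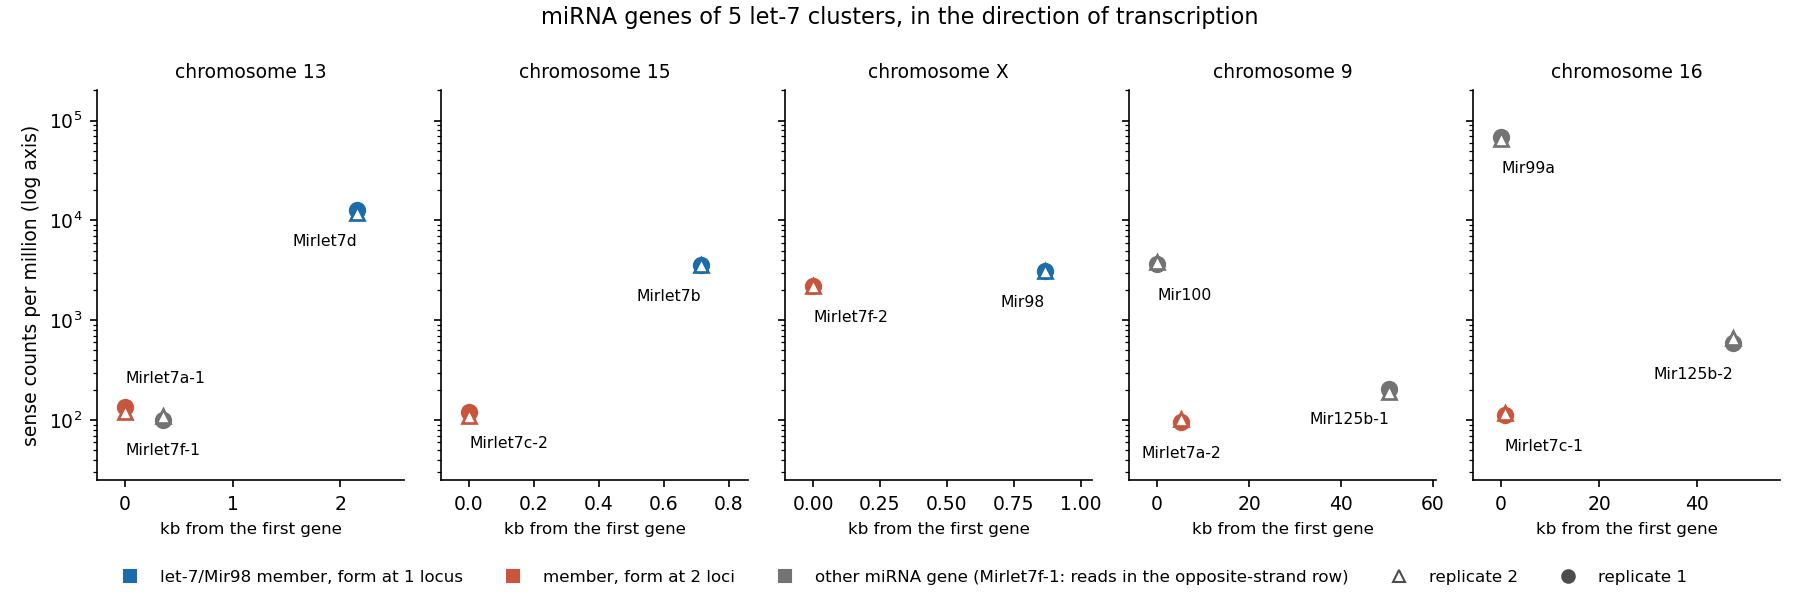
Sense CPM (log axis) of the miRNA genes in 5 clusters that hold let-7 loci, against the distance in kb from the first gene in the direction of transcription, for the 2 hearts; Mirlet7f-1, which has no row, is drawn from the reads on its strand in the opposite-strand column of Gm24111. In 4 clusters a let-7 locus at 96.4 to 134 CPM stands beside a gene at 3589 CPM or more; in the X chromosome cluster Mirlet7f-2 and Mir98 lie between 2185 and 3132 CPM.

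Genes of 1 cluster are usually cut from a shared transcript. Their counts differed widely on chromosomes 13 and 15 and less on the X chromosome. On each, the lower member shares its mature form with another locus and the higher does not. The part of reads aligned to several places in these differences was not tested. On chromosome 13, Mirlet7d lies 2064 bases from Mirlet7a-1 and exceeded it 96.8-fold (log2 ratio 6.60 ± 0.0542). On chromosome 15, Mirlet7b lies 621 bases from Mirlet7c-2, both over exons of the noncoding RNA gene Lncppara, and exceeded it 31.3-fold (log2 ratio 4.97 ± 0.0790). On the X chromosome, Mir98 lies 785 bases from Mirlet7f-2 in Huwe1 and exceeded it 1.41-fold (log2 ratio 0.50 ± 0.0271). The X chromosome pair held 5.22% ± 0.0365 of the family's counts, the chromosome 13 pair 12.2% ± 0.428 and the chromosome 15 pair 3.65% ± 0.0155.

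Mirlet7a-2 and Mirlet7c-1 lie in clusters with genes of the miR-99/miR-100 and miR-125 families, which are conserved companions of let-7. Mirlet7c-1, in an intron of the host gene Mir99ahg, had 407 counts in replicate 2 and 259 in replicate 1, while Mir99a, 656 bases away on the same strand, had 227470 in replicate 2 and 158762 in replicate 1. Mirlet7c-1 was thus 585-fold lower than Mir99a (log2 ratio -9.19 ± 0.0942). Mirlet7a-2, in introns of the noncoding genes 3110039I08Rik and Gm49317, was 37.9-fold lower than Mir100, 5211 bases away, with a log2 ratio of -5.24 in both pups.

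The miR-125b genes of these clusters, Mir125b-1 and Mir125b-2, share a mature form as the copies of let-7a and let-7c do. Mirlet7a-2 was 2.01-fold lower than Mir125b-1 (log2 ratio -1.01 ± 0.135), and Mirlet7c-1 was 5.55-fold lower than Mir125b-2 (log2 ratio -2.47 ± 0.0776). Among the 6 partner genes, Mir125b-1 (200 ± 10.6 CPM) and Mir125b-2 (634 ± 54.6 CPM) were the lowest. The 4 with a mature form found in no other hairpin, Mir99a, Mir99b, Mir100 and Mir125a, lay at 66780, 11256, 3760 and 2349 CPM. The part of reads aligned to several places in the gaps within clusters was not tested.

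Genes nearest in level to the leading members were found by mean CPM over the 2 libraries. Mirlet7g stood between Mir322 (57502 ± 461 CPM) and Mir30e (45935 ± 204 CPM), and its values overlapped neither. Mirlet7i stood below Mir26b (33434 ± 1161 CPM) and above Mir23a (26243 ± 1713 CPM). Mirlet7i had 31918 CPM and Mir26b 34255 CPM in replicate 2, while in replicate 1 they were closer, with 32591 CPM for Mirlet7i and 32613 CPM for Mir26b. Mirlet7d stood between Mir208a (14939 ± 1397 CPM) and Mir99b (11256 ± 928 CPM), and its values overlapped neither. The lowest value of Mirlet7d, 11916 CPM in replicate 2, was close to the highest of Mir99b, 11912 CPM in replicate 1.

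Among other genes with the let-7 seed or name that have a row of their own, counts were low. Mir1961 and Mir7k, whose mature forms share the seed, had 0 counts in both libraries, for which the limit of 3 counts is 0.860 CPM for replicate 2 and 1.29 CPM for replicate 1. That limit covers counting error only. How many of the reads aligned to several places came from these genes was not tested, so 0 counts do not show their absence. Mir7j, annotated as let-7j, had 130 counts in replicate 2 and 64 in replicate 1, or 32.4 ± 6.88 CPM. The motif GGAG, which LIN28 proteins can bind in let-7 precursors, was searched on the hairpin's own strand between the arms and in the first few bases of the 3p form. It was found in 7 of 10 members, among them the highest (Mirlet7g) and the lowest (Mirlet7a-2), and not in Mirlet7b, Mirlet7c-2 and Mir98; 37.2% of all 2202 hairpins hold it anywhere.

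Last, the family was compared between the hearts, as replicate 2 over replicate 1. Each of 348 genes with 10 or more counts in sum was tested by an exact two-sided binomial test given library sizes scaled by TMM (a trimmed mean of log ratios), with Benjamini-Hochberg adjustment. The test compares 2 libraries at counting error only, not conditions. It called 2 of the 10 members, both lower in replicate 2, against 27.6% of all genes tested, of which 17.5% were higher and 10.1% lower in replicate 2. Among the 193 genes that averaged at least 50 CPM, as all 10 members did, a larger share was called, 81 genes. Of those, 48 were higher and 33 lower in replicate 2. The share of members called was below both backgrounds, and whether it differs from them was not tested. Mirlet7d stood at 11916 CPM in replicate 2 and 12658 CPM in replicate 1, a log2 ratio of -0.10 (adjusted p = 4.46e-20, exact binomial test). Mirlet7i stood at 31918 CPM in replicate 2 and 32591 CPM in replicate 1, a log2 ratio of -0.05 (adjusted p = 4.05e-11, exact binomial test). Mirlet7d was 1.07-fold and Mirlet7i 1.03-fold lower in replicate 2.

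The other 8 members did not pass, with log2 ratios between -0.18 (Mirlet7a-1) and 0.06 (Mirlet7a-2). For Mirlet7g, with a log2 ratio of -0.01, the 95% interval was -0.02 to 0.00 (adjusted p = 0.335, exact binomial test). For Mirlet7a-1 it was -0.40 to 0.04 (adjusted p = 0.248, exact binomial test), so at this depth a difference of that size was not detectable. The median absolute log2 ratio was 0.05 over the 10 members, against 0.16 over all 348 genes and 0.11 over the 193 genes that averaged at least 50 CPM. The largest fold among the members was 1.13-fold (Mirlet7a-1, lower in replicate 2).

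**Figure D5:**
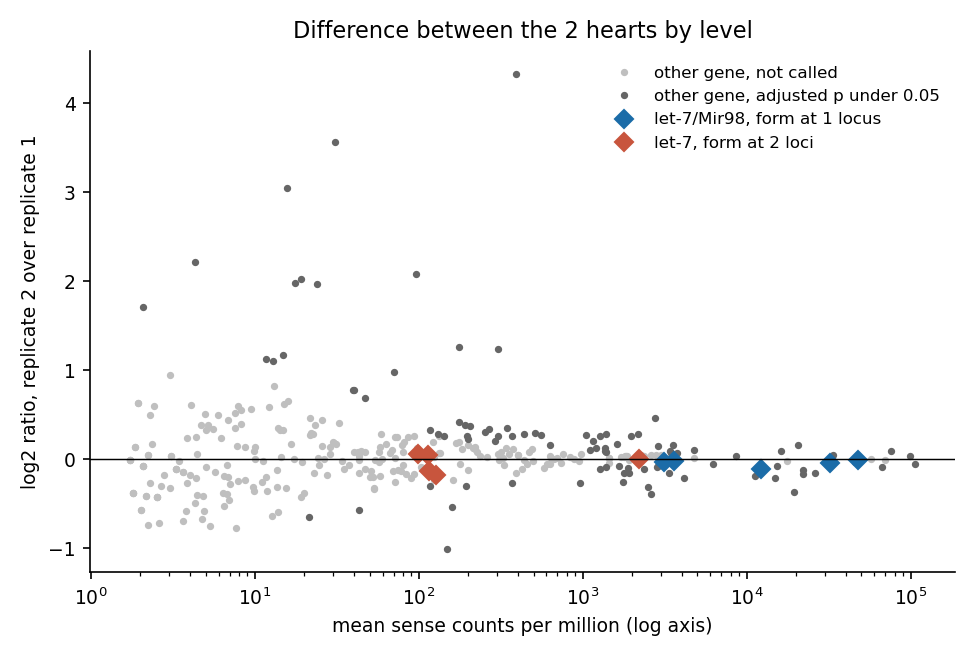
Log2 ratio of replicate 2 over replicate 1 against mean sense CPM (log axis) for 348 genes; diamonds are the 10 let-7 and Mir98 loci, dark points other genes with adjusted p under 0.05 by the exact binomial test. The members lie between -0.18 and 0.06, while some other genes lie above 2.

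Cell markers were tested between the same hearts, by the same exact binomial test. Lower in replicate 2, as Mirlet7d and Mirlet7i were, were 1 of 6 cardiac muscle markers (Mir208a, log2 ratio -0.21), the endothelial marker Mir126a (log2 ratio -0.05) and 1 of 2 red cell markers (Mir144, log2 ratio -0.53). The cardiac list held 8.89% of sense counts in replicate 2 and 9.01% in replicate 1, Mir126a held 10.6% in replicate 2 and 10.8% in replicate 1, and the red cell list held 0.0542% in replicate 2 and 0.0627% in replicate 1. Of the 8 epithelial markers, 6 were called, all higher in replicate 2, and Mir203 (log2 ratio 0.19) and Mir200a (log2 ratio 0.62) did not pass. That list held 0.0820% of sense counts in replicate 2 and 0.0372% in replicate 1. All 3 markers of multiciliated cells (Mir449a, Mir34b, Mir34c) were called higher in replicate 2, and they held 0.118% in replicate 2 and 0.0221% in replicate 1. Of the 2 smooth muscle markers, Mir143 was called higher (log2 ratio 0.04), and the list held 10.2% in replicate 2 and 9.83% in replicate 1. Neither of the 2 white cell markers nor the liver marker Mir122 passed, and the 5 brain markers with a row had 0 counts in both libraries. How many of the reads aligned to several places came from these brain markers was not tested, so 0 counts do not show their absence. The part of any of these cells in the small differences of Mirlet7d and Mirlet7i was not tested.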

How the data were processed

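Small RNAs from total RNA, with inserts under 30 nt per the labels, were sequenced from 2 hearts, 1 library each. The deposited values are counts: whole numbers of reads for each miRNA gene without normalization, as 3 columns for both strands together, sense and opposite. Per the labels and the deposited description the assembly was mm10 and the annotation GENCODE M4. The aligner, counter, trimming and multiple-alignment settings are not given in the sources used here. Library sizes and tests left out 4 summary rows, among them unmapped reads (10.5% in replicate 2, 11.5% in replicate 1), reads aligned to several places and reads on no feature in the sense direction (5.62% in replicate 2, 5.93% in replicate 1).

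From the sense counts, CPM, shares with exact Clopper-Pearson 95% intervals and log2 ratios were computed (Python 3.11.15, SciPy 1.17.1). Identifiers were matched to GENCODE M21 (GRCm38, the same assembly): 1894 of 1973 matched, and the other 79 had 0 counts. TMM factors came from edgeR 4.0.16 and DESeq2 1.42.0 gave size factors for an alternative. For log2 ratios of replicate 2 over replicate 1, 1 CPM was added to both values; calls used an adjusted p under 0.05. The exact test was checked on simulated counts with counting error only. That check does not cover differences between hearts beyond counting error. The 2 libraries were not one library deposited as 2: a chi-square of their counts was 29.5 per degree of freedom. Both pups are from 1 litter, so p-values and SDs do not cover litters. The members, lists, classes and tests were chosen with earlier results of these data known. Named genes were the members, their neighbours within 50000 bases, the partner genes, genes with the same seed, the genes next in level to the 3 highest members, and cell markers; Mir16-1 was named after its value was seen.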

Additional observations from a re-analysis of the deposited data

Results flagged for a closer look

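Mirlet7f-1 lies 261 bases from Mirlet7a-1 on chromosome 13 and makes the same mature form as Mirlet7f-2, and Mirlet7e belongs to a cluster with Mir99b and Mir125a on chromosome 17. Neither had a row of its own. Each lies on the opposite strand inside a miRNA gene that has one (Gm24111 and Gm25927), so reads on its strand were counted there as opposite-strand reads, outside the sense counts used above. On the strand of Mirlet7f-1 there were 383 reads in replicate 2 and 236 in replicate 1, or 106 ± 5.84 per 1000000 sense counts (SD, n = 2), close to the 4 lowest members. Mirlet7f-2 exceeded this 20.8-fold (log2 ratio 4.38 ± 0.0654), although both make the same mature form. On the strand of Mirlet7e there were 10111 reads in replicate 2 and 6339 in replicate 1, or 2814 ± 121 per 1000000 sense counts. All 4 values are above the 3 counts that a count of 0 allows; there were no control samples. The sense strand of Gm24111 and Gm25927 had 0 counts.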

How the results depend on the processing

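The family's share of 10.2% became 9.49% on counts of both strands, 4.72% of all reads, 5.67% with reads aligned to several places in the denominator, and 10.5% with the reads on the strands of Mirlet7f-1 and Mirlet7e added, an alternative chosen after seeing the data; each follows from the denominator or the added reads. Leaving out 1 pup gave 10.1% to 10.2%. The log2 ratio of single-copy over repeated forms (5.22) became 5.17 without Mir98, 5.16 with the reads on the strand of Mirlet7f-1 and 7.76 without Mirlet7f-2 (the last 2 chosen after seeing the data); leaving out 1 pup gave 5.21 to 5.23. Within clusters, leaving out 1 pup gave 6.56 to 6.64 for Mirlet7d over Mirlet7a-1, 4.91 to 5.02 for Mirlet7b over Mirlet7c-2 and 0.48 to 0.52 for Mir98 over Mirlet7f-2. The log2 ratio of Mirlet7c-1 over Mirlet7c-2 (-0.01) was -0.102 without replicate 2 and turned to 0.0802 without replicate 1. The planned addition of Mirlet7e and Mirlet7f-1 by their own rows was not run, since they have none. Between the pups, 86 to 104 genes were called under 6 alternatives, against 96. Mirlet7i and Mirlet7d were called in all of them and Mirlet7g also on both strands (log2 ratio -0.02, adjusted p = 0.0148, exact binomial test). Scaling by total counts turned Mirlet7g to 0.00876 and counts of both strands turned Mirlet7f-2 to -0.00474, neither called. Both loci had 0 opposite-strand counts in both libraries. Their own counts were thus the same in these alternatives, and only the scaling of the libraries differed. All 20 member levels under the other denominators moved down by more than 1 SD. No paired analysis was possible because the series has 1 group. Depth limits the 4 lowest loci, at 224 to 418 counts each.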
